A study of Mus musculus with 9 samples.

Results

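The EGF family ligands and their ERBB receptors were followed in mouse intestinal tumour organoids before and after the return of the tumour suppressor Apc. The set held 10 of the 21253 genes in the count table, chosen by symbol with earlier results of these data known. It held the ligand genes Areg, Ereg, Egf, Hbegf, Tgfa, Btc and Nrg1, and the receptor genes Egfr, Erbb2 and Erbb3. RNA was sequenced from 9 samples of AKP tumoroids, whose alleles the labels do not give. The sample titles read shAPC, and doxycycline keeps Apc off in this culture. The control group (3 samples) was kept in doxycycline, and the other groups (3 samples each) were collected after doxycycline had been withdrawn for 2 days or for 7 days, which restored Apc. The organoid background is shared by every group, the labels name 1 sample ID and call the replicates technical, and the p-values below therefore measure a spread that may be technical alone. Withdrawal of the drug, restoration of Apc and time in culture cannot be told apart. The culture followed a published protocol, and whether its medium contained EGF is not given in the sources used here.

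As background, EGF family ligands are made as membrane-anchored precursors that metalloproteases cut free, and they act on the cell that made them or on its neighbours. AREG, EREG, EGF, HBEGF, TGFA and BTC bind EGFR, while NRG1 binds ERBB3 and ERBB4. ERBB2 has no known ligand and serves as the preferred partner of the other receptors, and ERBB3 has little kinase activity of its own but docks PI3 kinase. In the intestine, EGFR signalling drives proliferation of crypt cells through the kinase ERK, and LRIG1 restrains it in stem cells.

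Libraries held 24143589 to 32277040 counts, and levels are given in CPM, the count relative to the library total after scaling by TMM, a method that assumes that most genes keep their level. Apc itself, the target of the hairpin, lay between 6.8 and 8.84 CPM in controls and rose to between 24.8 and 38.1 CPM after 2 days and between 67.9 and 92.9 CPM at 7 days. All 8 of 8 epithelial markers passed the filter on low counts, with a summed level of 9710 to 12800 CPM in controls, 14400 to 16400 CPM after 2 days and 26700 to 36400 CPM at 7 days. Of 8 fibroblast markers 2 passed that filter, and the sum of all 8 stayed between 0.563 and 1.16 CPM in every sample. Lum was at 0 counts throughout. The 2 that passed moved in opposite directions at 7 days against controls. Pdgfrb rose from 0.00957 to 0.504 CPM on average (log2 fold change 5.04, edgeR adjusted p = 3.69e-06). Col1a2 fell from 0.568 to 0.114 CPM (-2.2, edgeR adjusted p = 0.000257). Summed immune markers (2 of 7 passed) lay at 1.21 to 1.58 CPM in controls and 3.81 to 5.8 CPM at 7 days. The 2 that passed, Cd68 (1.11 to 3.36 CPM on average) and Csf1r (0.0247 to 0.956 CPM), rose at 7 days. Endothelial markers (2 of 6 passed) summed to no more than 2.93 CPM in any sample, with Emcn at 0 counts.

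Of the 10 genes, 7 passed the filter and were tested, and each of those 7 had at least 12.8 CPM in every sample. At 2 days 6 of the 7 rose against controls and none fell, with Btc the 1 without a call, and at 7 days the same 6 genes rose again against controls with none falling (edgeR quasi-likelihood test, Benjamini-Hochberg adjusted p under 0.05). Among all 12535 genes tested, 23.7% were called in either direction at 2 days, 13.1% higher and 10.6% lower. At 7 days 82.3% were called, 40.5% higher and 41.8% lower, so a call at that time was common among all genes. The median log2 fold change of the 7 genes was 0.53 at 2 days and 1.71 at 7 days, against 0.0 and -0.03 over all genes tested. Both comparisons use the same controls. From 2 to 7 days 5 of the 7 rose and none fell, while 79.1% of all genes were called, 39.2% higher and 39.9% lower.

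**Figure D1:**
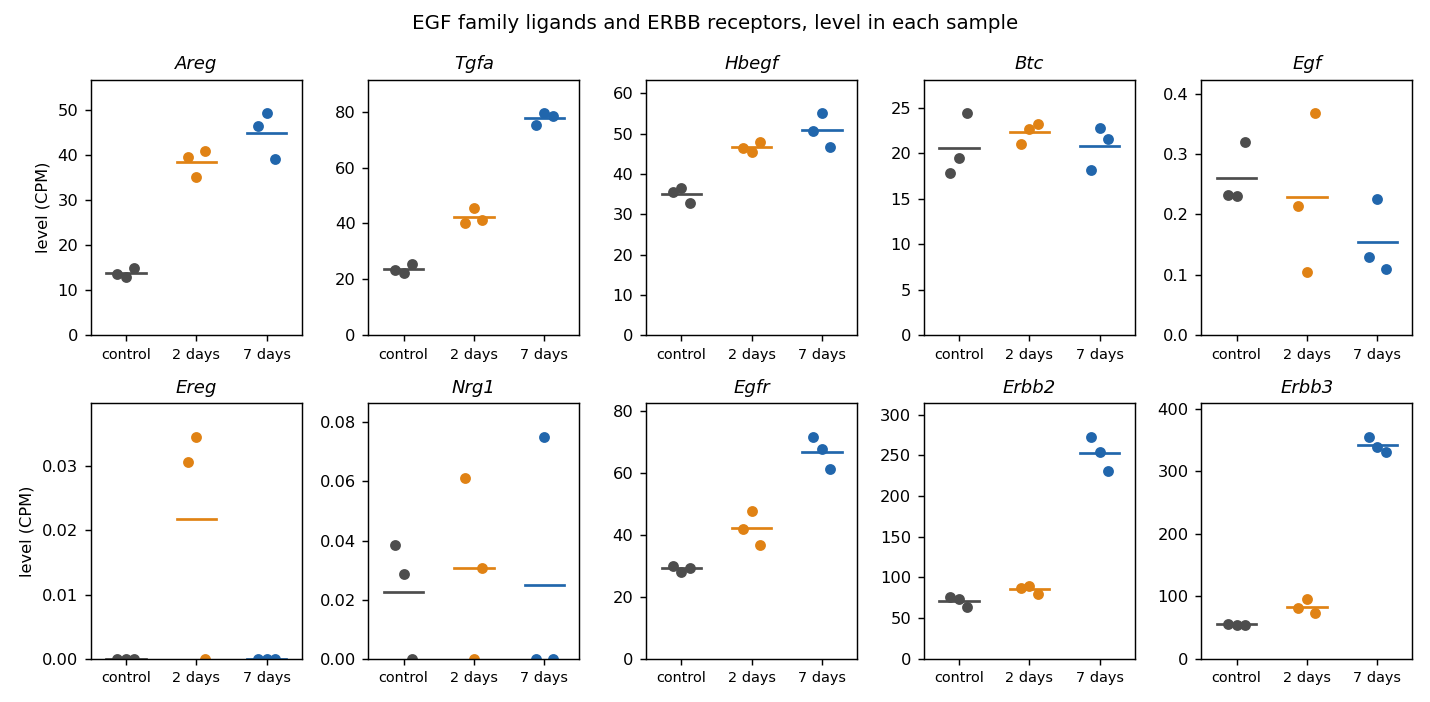
Level (CPM, linear axes that start at 0 and differ between panels) of each of the 10 genes in each of the 9 samples, as points, with the group mean as a line. Samples of Areg, Tgfa, Hbegf, Egfr, Erbb2 and Erbb3 lie above every control at both times, Btc overlaps in all groups, and Egf, Ereg and Nrg1 sit at or below 0.368 CPM.

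Areg (ENSMUSG00000029378, GRCm38 chromosome 5, 91139599 to 91148432, plus strand) encodes amphiregulin, a low-affinity EGFR ligand that damaged and regenerating epithelia are known to produce. Its level was 13.5, 12.8 and 14.9 CPM in controls, 39.6, 35.0 and 40.8 CPM after 2 days, and 46.4, 49.3 and 39.2 CPM at 7 days. Every sample without doxycycline was above every control, and the samples at 2 and 7 days overlapped. Areg rose by 1.49 ± 0.11 on the log2 scale at 2 days (± SE, n = 3 per group, a 2.8-fold rise, edgeR adjusted p = 7.83e-08) and stood 1.71 ± 0.11 above controls at 7 days (3.28-fold, edgeR adjusted p = 6.18e-10). Of all genes tested, 97.7% had a lower log2 fold change than Areg at 2 days, the highest such share of the 7 genes. At 7 days that share was 86.6%. The step from 2 to 7 days was 0.22 ± 0.10 (edgeR adjusted p = 0.0499), and this call was lost in 11 of 18 alternative settings, including upper-quartile scaling (0.10, adjusted p = 0.356) and the omission of control replicate 1 or 2, of 2 days replicate 1 or 2 or of 7 days replicate 1 or 2 (adjusted p = 0.0617 to 0.211). With library size alone as the scaling it was -0.20 (adjusted p = 0.0826).

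Tgfa (ENSMUSG00000029999, GRCm38 chromosome 6, 86195223 to 86275719, plus strand) encodes transforming growth factor alpha, a high-affinity EGFR ligand. It was at 23.2, 22.2 and 25.6 CPM in controls, at 40.2, 45.4 and 41.1 CPM after 2 days and at 75.3, 79.5 and 78.3 CPM at 7 days. The 3 groups did not overlap, and the samples of each group lay close together. Tgfa rose by 0.84 ± 0.08 on the log2 scale at 2 days (1.79-fold, edgeR adjusted p = 2.34e-06) and by a further 0.88 ± 0.08 from 2 to 7 days (1.84-fold, edgeR adjusted p = 8.05e-08). At 7 days it stood 1.72 ± 0.08 above controls (3.29-fold, edgeR adjusted p = 3.72e-11). Areg and Tgfa thus reached nearly equal log2 fold changes at 7 days by different courses, Areg with most of its rise in the first 2 days and Tgfa with steps of like size on the log2 scale under TMM (0.85 and 0.46 with library size alone).

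Hbegf (ENSMUSG00000024486, GRCm38 chromosome 18, 36504927 to 36515805, minus strand) encodes heparin-binding EGF-like growth factor, which binds EGFR and ERBB4. Its level was 35.5, 36.6 and 32.8 CPM in controls, 46.5, 45.4 and 48.0 CPM after 2 days, and 50.6, 55.1 and 46.7 CPM at 7 days. All samples without doxycycline were above the controls, and those of 2 and 7 days overlapped. Hbegf rose by 0.41 ± 0.08 on the log2 scale at 2 days (1.33-fold, edgeR adjusted p = 0.00177) and was 0.54 ± 0.08 above controls at 7 days (1.45-fold, edgeR adjusted p = 2.19e-05). The 7-day call was lost with library size alone (0.14, adjusted p = 0.12). From 2 to 7 days the difference was 0.12 (95% interval -0.05 to 0.3, edgeR adjusted p = 0.178), and -0.30 (adjusted p = 0.00312) with library size alone. Hbegf was the 1 gene of the 7 called higher at 2 days and not called between 2 and 7 days, a course that 1.52% of all genes tested had.

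Btc (ENSMUSG00000082361, GRCm38 chromosome 5, 91357261 to 91402994, minus strand) encodes betacellulin, another ligand of EGFR and ERBB4. Its level was 17.8, 19.5 and 24.4 CPM in controls, 21.0, 22.6 and 23.2 CPM after 2 days, and 18.1, 22.8 and 21.6 CPM at 7 days. All 3 groups overlapped, with the highest sample a control. The log2 difference from controls was 0.12 at 2 days (95% interval -0.14 to 0.37, edgeR adjusted p = 0.526) and 0.02 at 7 days (95% interval -0.23 to 0.28, edgeR adjusted p = 0.863). These intervals leave out a change of 1.5-fold in either direction under TMM scaling. With library size alone the 7-day value was -0.38 (adjusted p = 0.0239). No call in either step was the course of 17.9% of all genes tested.

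The other 3 ligand genes were at trace levels. Ereg (ENSMUSG00000029377, GRCm38 chromosome 5, 91074622 to 91093646, plus strand), the gene of epiregulin, had 1, 1 and 0 counts at 2 days and 0 in the 6 other samples. Nrg1 (ENSMUSG00000062991, GRCm38 chromosome 8, 31814551 to 32884029, minus strand), which in the gut is made mainly by mesenchymal cells, had 1, 1 and 0 counts in controls, 2, 0 and 1 at 2 days and 0, 2 and 0 at 7 days. For both genes each group lay at or under 3 counts, the limit that a count of 0 allows (0.0337 CPM over the controls, 0.0319 CPM over the 2-day and 0.039 CPM over the 7-day group), and no fold is given. Egf (ENSMUSG00000028017, GRCm38 chromosome 3, 129677565 to 129755316, minus strand), in the small intestine a product of Paneth cells, had 6, 8 and 9 counts in controls, 7, 3 and 12 at 2 days and 3, 6 and 3 at 7 days. Its group ratio to controls was 0.903 at 2 days (95% exact counting interval 0.48 to 1.7) and 0.602 at 7 days (0.273 to 1.26), and both intervals include 1. The 3 samples at 7 days (0.130, 0.225 and 0.110 CPM) nevertheless lay below the 3 controls (0.232, 0.230 and 0.320 CPM) without overlap, on 12 against 23 counts. These intervals and limits cover counting error only. Paneth markers (3 of 6 passed the filter) summed to 26.8 to 28.3 CPM in controls, 5.5 to 7.92 CPM after 2 days and 5.06 to 7.27 CPM at 7 days. Itln1 alone gave most of these sums (21.6, 4.8 and 5.48 CPM on average), and Defa17, Defa24 and Ang4 averaged at most 0.115 CPM in any group. The part of these markers in the Egf values was not tested.

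The family members outside the set were likewise scarce. Epgn (epigen, an EGFR ligand) had 9, 7 and 11 counts summed over controls, 2 days and 7 days, Nrg2 had 4, 13 and 4, Nrg3 had 0, 0 and 1, and Erbb4, the fourth receptor, had 1, 0 and 1. Nrg4, a ligand of ERBB4, was the only one of these 5 to pass the filter, with 10, 10 and 16 counts in controls, 15, 4 and 14 at 2 days and 13, 22 and 22 at 7 days. The 7-day and control samples of Nrg4 overlapped. Its log2 difference was 0.86 ± 0.36 at 7 days (edgeR adjusted p = 0.0376), a call lost in 7 of 18 settings, among them the omission of control replicate 1 or 2 or of 7 days replicate 2 or 3 (adjusted p = 0.0656 to 0.267 over the 7). Nrg4 was not tested in the setting that required at least 5 CPM on average.

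Egfr (ENSMUSG00000020122, GRCm38 chromosome 11, 16752203 to 16918158, plus strand) encodes the receptor shared by AREG, TGFA, HBEGF, BTC, EREG and EGF. Its level was 30.1, 28.1 and 29.5 CPM in controls, 42.0, 47.9 and 36.7 CPM after 2 days, and 71.8, 67.7 and 61.5 CPM at 7 days. The 3 groups did not overlap, and the 2-day samples were the most spread. Egfr rose by 0.53 ± 0.10 on the log2 scale at 2 days (1.44-fold, edgeR adjusted p = 0.00103) and by 0.67 ± 0.10 from 2 to 7 days (edgeR adjusted p = 1.34e-05), to 1.20 ± 0.10 above controls (2.29-fold, edgeR adjusted p = 1.88e-08).

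Erbb2 (ENSMUSG00000062312, GRCm38 chromosome 11, 98412470 to 98437716, plus strand), the gene of the receptor without a ligand of its own, moved little in the first 2 days and strongly after them. Its level was 75.5, 73.2 and 63.3 CPM in controls, 87.4, 89.5 and 79.9 CPM after 2 days, and 273, 254 and 231 CPM at 7 days. The groups did not overlap, with the lowest 2-day sample just above the highest control. The difference at 2 days was 0.28 ± 0.09 on the log2 scale (1.21-fold, edgeR adjusted p = 0.0354), and the call was lost without control replicate 2 or 3, without 2 days replicate 1 or 2 or without 7 days replicate 2 (0.20 to 0.30, adjusted p = 0.0573 to 0.127). From 2 to 7 days Erbb2 rose by 1.56 ± 0.09 (2.95-fold, edgeR adjusted p = 4.11e-10), and at 7 days it was 1.84 ± 0.09 above controls (3.58-fold, edgeR adjusted p = 4.92e-11). Erbb2 overlaps Mien1 on the other strand, and reads from the shared stretch cannot be assigned where the counting ignores strand. Mien1 was lower than Erbb2 in every group, at 13.3, 14.6 and 36.7 CPM on average, and rose by 1.46 at 7 days (edgeR adjusted p = 1.9e-08).

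Erbb3 (ENSMUSG00000018166, GRCm38 chromosome 10, 128567523 to 128589652, minus strand), the gene of the receptor that recruits PI3 kinase, had the largest change of the 7 genes at 7 days. Its level was 56.1, 54.2 and 54.4 CPM in controls, 81.2, 95.5 and 72.7 CPM after 2 days, and 355, 339 and 331 CPM at 7 days. The groups did not overlap, and the lowest 7-day sample was far above the highest 2-day sample. Erbb3 rose by 0.60 ± 0.09 on the log2 scale at 2 days (1.51-fold, edgeR adjusted p = 0.000201), by 2.04 ± 0.09 from 2 to 7 days (4.11-fold, edgeR adjusted p = 2.98e-11) and by 2.64 ± 0.10 over the whole span (6.22-fold, edgeR adjusted p = 1.41e-12). Of all genes tested, 92.1% had a lower log2 fold change than Erbb3 at 7 days, against 87.7% for Erbb2 and 80.9% for Egfr.

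Of the 7 genes, 5 (Areg, Tgfa, Egfr, Erbb2 and Erbb3) were called higher at 2 days and higher again from 2 to 7 days, a course that 9.88% of all genes tested had. The Areg call from 2 to 7 days held in only 7 of 18 alternative settings. The Erbb2 call at 2 days held in 13 of 18. Groups of samples stood apart without overlap at 2 days in the 6 genes that rose, where 19.9% of all genes were higher without overlap, and in the same 6 at 7 days, where 40.5% were. Between 2 and 7 days Tgfa, Egfr, Erbb2 and Erbb3 did not overlap, as did 39.2% of all genes in that direction. Markers of cell types moved over the same samples. Enterocyte markers (6 of 6 passed, none at 0) summed to 5.48 to 9.08 CPM in controls, 34.9 to 38.5 CPM after 2 days and 13300 to 14100 CPM at 7 days. Alpi, Apoa1 and Krt20 were called higher at 2 days and Apoa4, Sis and Fabp1 were not. Krt20 gave most of the 2-day sum (23.0 CPM on average). Goblet markers (5 of 5 passed) summed to 34.0 to 36.6, 180 to 181 and 3260 to 3930 CPM, and stem cell markers (4 of 5 passed) to 186 to 210, 35.0 to 35.9 and 23.1 to 26.3 CPM. Smoc2 (95.6 CPM on average) and Axin2 (70.5 CPM) gave most of the stem cell sum in controls, and Smoc2 (22.6 CPM) most of it at 7 days. Lgr5 fell from 14.9 CPM in controls to 0.886 CPM at 7 days, and Ascl2 from 18.1 to 0.0144 CPM. The part of these markers in the ligand and receptor values was not tested, and in such bulk samples more cells of a type and more RNA per cell cannot be told apart.

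**Figure D2:**
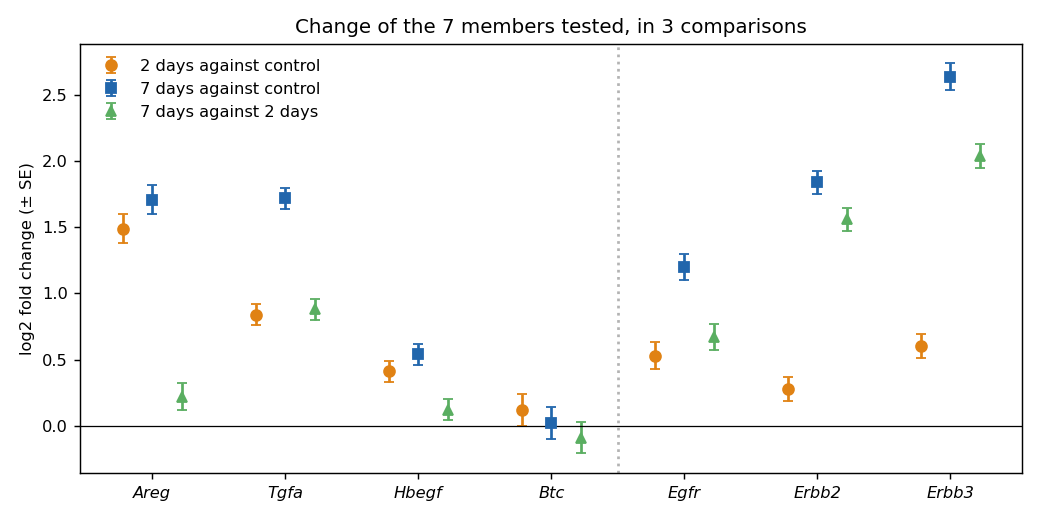
Log2 fold change ± SE (edgeR, 3 samples per group) of the 7 genes tested in the 3 comparisons, ligands left of the dotted line and receptors right of it. Areg has most of its rise by 2 days (1.49 of 1.71), while Erbb2 and Erbb3 have most of theirs between 2 and 7 days (1.56 of 1.84 and 2.04 of 2.64).

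At 7 days the scaling of the libraries bears on the smaller changes. Library size alone lowered the median log2 fold change of all genes by 0.40 against controls and by 0.42 against 2 days, and the share of calls that were higher went from 49.2% to 34.8% and from 49.5% to 31.8%. Tgfa, Egfr, Erbb2 and Erbb3 were called higher from 2 to 7 days under TMM, DESeq2 size factors, upper-quartile factors and library size alone, with lower values under the last (0.46, 0.25, 1.14 and 1.62). Measured from the median of all genes, the 2-to-7-day log2 changes under TMM were 0.25 for Areg, 0.15 for Hbegf, -0.06 for Btc, 0.91 for Tgfa, 0.69 for Egfr, 1.59 for Erbb2 and 2.07 for Erbb3.

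**Figure D3:**
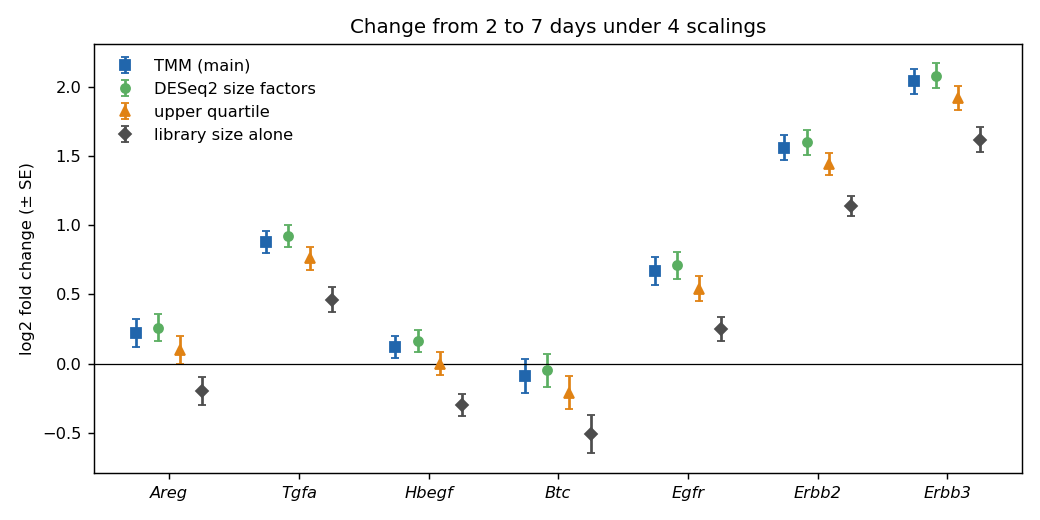
Log2 fold change ± SE from 2 to 7 days (edgeR, 3 samples per group) of the 7 genes under 4 scalings of the libraries. Tgfa, Egfr, Erbb2 and Erbb3 lie above 0 under each of the 4, while Areg and Hbegf lie above 0 under TMM (0.22 and 0.12) and below 0 with library size alone (-0.20 and -0.30).

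Levels of different genes were compared per length, as CPM per kilobase of exons. In controls Areg had the highest ligand level at 11.3 ± 0.914 CPM per kilobase (SD, n = 3), followed by Hbegf at 7.23, Btc at 4.55 and Tgfa at 3.64, with Egf at 0.0231. At 7 days the order was Areg at 37.0 ± 4.27, Tgfa at 12, Hbegf at 10.5, Btc at 4.61 and Egf at 0.0138 CPM per kilobase. The ligands of EGFR summed to 26.7 ± 1.48 CPM per kilobase in controls, 52.8 ± 2.43 at 2 days and 64.1 ± 5.26 at 7 days (SD, n = 3). Areg made up 42.2% ± 1.37 of that sum in controls, 59.9% ± 2.25 at 2 days and 57.6% ± 2.4 at 7 days, and the share of Btc went from 16.9% to 9.35% and 7.22%. The order of ligands depended on the length used. With the longest transcript in place of all exons, Hbegf held 35.9% and Areg 33.4% of the control sum, and at 7 days Hbegf (22.8%) and Tgfa (22.4%) differed by less than the spread between samples.

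The receptor levels per length changed places. Erbb2 was highest in controls at 13.6 CPM per kilobase, above Erbb3 at 9.13 and Egfr at 2.58, whereas at 7 days Erbb3 was highest at 56.8, above Erbb2 at 48.5 and Egfr at 5.92. The ratio of Erbb3 to Erbb2 per length was 0.644, 0.642 and 0.745 in controls, 0.805, 0.924 and 0.788 at 2 days, and 1.13, 1.16 and 1.24 at 7 days. It was below 1 in the 6 earlier samples and above 1 in all 3 samples at 7 days. The 3 receptors summed to 25.3 ± 1.36 CPM per kilobase in controls, 34.0 ± 3.3 at 2 days and 111 ± 6.44 at 7 days (SD, n = 3). Egfr held 10.2% ± 0.644 of the receptor sum in controls, 10.9% ± 0.39 at 2 days and 5.32% ± 0.117 at 7 days. The sums are descriptions of RNA and were not tested.

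**Figure D4:**
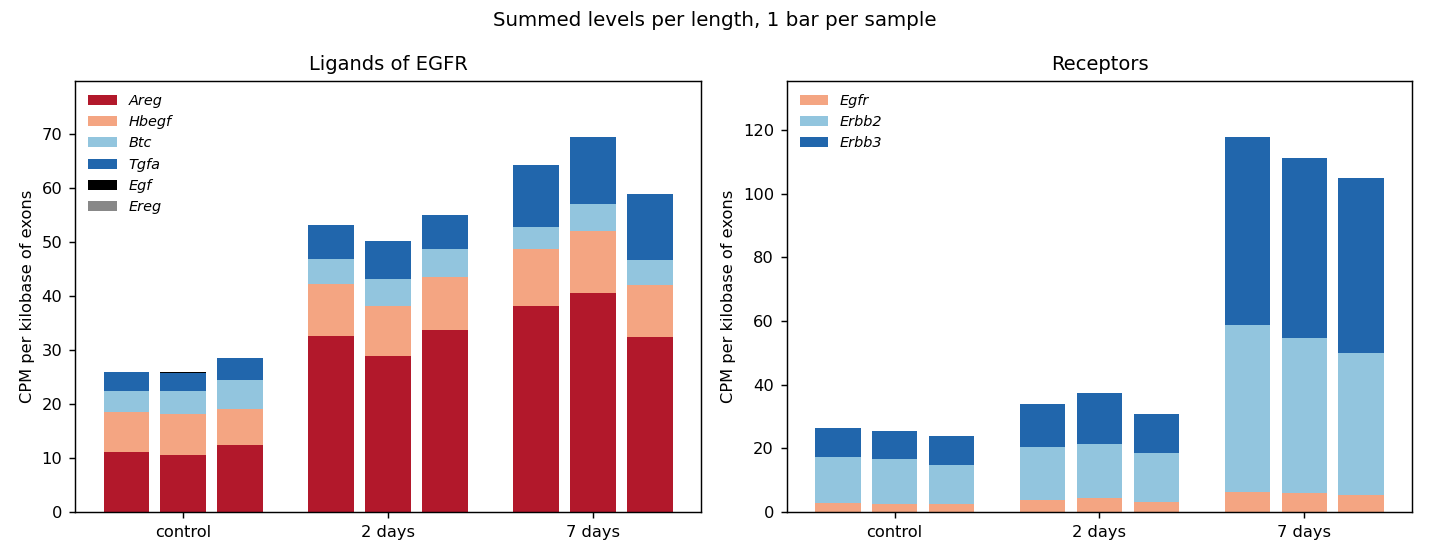
Stacked levels per length (CPM per kilobase of exons) of the EGFR ligands (left) and of the receptors (right), 1 bar per sample. The ligand bars rise most between control (25.8 to 28.5) and 2 days (50.2 to 55.0), and the receptor bars between 2 days (30.7 to 37.3) and 7 days (105 to 118). Ereg and Egf are too low to see, and Nrg1, a ligand of ERBB3 and ERBB4, is not included.

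Areg, Ereg, Btc and Epgn (chromosome 5, 91027464 to 91035215, plus strand) lie in a row on GRCm38 chromosome 5, in the order Epgn, Ereg, Areg and Btc. Areg is thus a gene that rose between a neighbour at or near 0 counts, Ereg, and a neighbour without a detected change, Btc. Beyond Epgn, Mthfd2l was at 14.3, 15.7 and 11.7 CPM on average in controls, at 2 days and at 7 days, and beyond Btc, Parm1 was at 71.9, 80.4 and 192 CPM, a rise of 1.42 on the log2 scale at 7 days (edgeR adjusted p = 1.32e-09). The fall of Mthfd2l at 7 days (-0.29, edgeR adjusted p = 0.012) was lost without control replicate 3 or 7 days replicate 2. Farther along the same stretch lie chemokine genes, most of them under 3 CPM. Cxcl5 was at 0.14, 0.908 and 2.87 CPM on average in controls, at 2 days and at 7 days, and its log2 fold changes of 2.61 and 4.27 against controls (edgeR adjusted p = 4.15e-05 and 1.29e-09) were larger than those of Areg. Cxcl3 rose by 2.27 (edgeR adjusted p = 0.000128) and Cxcl2 by 1.88 (edgeR adjusted p = 3.36e-05) at 7 days. Cxcl1, with 2.03, 5.92 and 3.66 CPM, rose by 1.54 at 2 days (edgeR adjusted p = 5.28e-06) and fell by 0.70 from 2 to 7 days (edgeR adjusted p = 0.000745), whereas Cxcl5 (1.66) and Cxcl3 (1.82) rose over that step.

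Promoter sequences, from 250 bases before to 50 after the start in the RefSeq table (GRCm38.p6), were found for 6 of the 10 genes. The promoters of neighbours Areg (chr5:91139349-91139648, plus strand) and Btc (chr5:91402945-91403244, minus strand) are printed to set a gene that rose by 2 days beside one without a detected change. Those of Tgfa (chr6:86194972-86195271), Egfr (chr11:16751953-16752252) and Erbb2 (chr11:98412234-98412533), all on the plus strand, are printed as the other risers found in that look-up. Capitals mark matches to any of the motifs searched, read 5′ to 3′ on the gene's strand.
Areg: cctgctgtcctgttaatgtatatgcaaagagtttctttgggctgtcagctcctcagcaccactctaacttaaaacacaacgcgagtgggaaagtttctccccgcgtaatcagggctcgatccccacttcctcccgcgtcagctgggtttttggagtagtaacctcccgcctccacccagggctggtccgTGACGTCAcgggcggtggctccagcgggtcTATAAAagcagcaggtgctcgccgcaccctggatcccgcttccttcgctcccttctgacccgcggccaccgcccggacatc
Btc: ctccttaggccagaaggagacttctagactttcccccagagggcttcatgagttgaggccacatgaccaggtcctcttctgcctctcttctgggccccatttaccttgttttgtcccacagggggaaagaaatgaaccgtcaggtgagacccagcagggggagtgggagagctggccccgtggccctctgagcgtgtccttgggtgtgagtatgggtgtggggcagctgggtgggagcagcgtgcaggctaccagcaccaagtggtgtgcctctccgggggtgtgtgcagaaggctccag
Tgfa: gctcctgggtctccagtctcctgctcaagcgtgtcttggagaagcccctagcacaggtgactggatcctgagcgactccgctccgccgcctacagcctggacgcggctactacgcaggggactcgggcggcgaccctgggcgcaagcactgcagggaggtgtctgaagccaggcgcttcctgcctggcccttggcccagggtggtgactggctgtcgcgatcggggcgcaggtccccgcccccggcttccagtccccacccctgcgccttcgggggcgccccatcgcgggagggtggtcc
Egfr: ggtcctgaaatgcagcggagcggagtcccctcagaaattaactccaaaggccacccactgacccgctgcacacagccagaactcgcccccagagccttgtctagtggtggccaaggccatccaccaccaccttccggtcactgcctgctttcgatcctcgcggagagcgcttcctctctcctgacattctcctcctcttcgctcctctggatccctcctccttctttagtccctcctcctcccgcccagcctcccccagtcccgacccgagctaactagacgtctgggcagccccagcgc
Erbb2: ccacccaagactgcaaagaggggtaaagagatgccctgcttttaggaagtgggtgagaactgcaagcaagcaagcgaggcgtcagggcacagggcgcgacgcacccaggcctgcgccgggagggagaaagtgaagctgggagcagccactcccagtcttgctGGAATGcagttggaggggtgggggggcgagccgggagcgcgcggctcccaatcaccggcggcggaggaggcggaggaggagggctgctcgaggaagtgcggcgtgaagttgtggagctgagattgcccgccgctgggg
Both strands were searched for the TCF/LEF letters CTTTGAT and CTTTGAA, the AP-1 letters TGANTCA and the TEAD letters GGAATG. The CRE letters TGACGTCA and the TATA letters TATAAA were added to the search after these promoters had been seen. Areg holds TGACGTCA at position -61 and TATAAA at position -31 from the start, and Erbb2 holds GGAATG at position -88. Tgfa, Egfr and Btc hold none of these letters in the window. Among all 32851 promoters of the table, 4.62% hold a TCF/LEF match, 7.81% an AP-1 match, 7.7% a TEAD match, 1.79% the CRE letters and 8.32% the TATA letters. A match is a description of the letters and not a measured site. GC content was 59.3% in the Areg promoter, 60.3% in Btc, 62.3% in Egfr, 66.0% in Erbb2 and 70.7% in Tgfa, against a median of 52.7% over all promoters.

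Of 9 ligand shedding genes, 0 rose and 1 fell at 2 days (Adam15, 23.4 to 17.5 CPM, log2 fold change -0.42, edgeR adjusted p = 0.0093), and 5 rose and 3 fell at 7 days, with a median log2 fold change of 0.44 against -0.03 over all genes. The share called was 11.1% at 2 days and 88.9% at 7 days, beside 23.7% and 82.3% of all genes tested. The count that rose at 2 days was 1 without control replicate 3, without 7 days replicate 3, with only the 2 groups compared or with replicate number as a block. With that block the count that fell at 2 days was 2. Adam17, the protease best known for cutting AREG and TGFA, was at 34.6, 38.2 and 44.1 CPM in controls, 40.5, 42.3 and 42.8 CPM after 2 days and 21.3, 22.1 and 27.5 CPM at 7 days, and fell by 0.72 on the log2 scale at 7 days (edgeR adjusted p = 1.81e-05). It was named after its values had been seen. Adam10, which cuts EGF and BTC, went from 117 to 194 CPM at 7 days (log2 fold change 0.73, edgeR adjusted p = 8.18e-06). The rhomboid proteases Rhbdl2 (11.2 to 24.9 CPM, 1.16) and Rhbdd1 (34.4 to 75.6 CPM, 1.13) also rose at 7 days, and Adam9 fell from 119 to 79.5 CPM (-0.58).

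Of 18 genes that brake or turn over the receptors, 1 rose and 4 fell at 2 days, and 9 rose and 5 fell at 7 days (5 and 9 with library size alone). The shares called, 27.8% and 77.8%, were near the 23.7% and 82.3% of all genes. The 4 that fell at 2 days were 2 without 2 days replicate 3, and the 1 that rose was 2 without control replicate 3 or 7 days replicate 1 or 3. It was also 2 with DESeq2 size factors, upper-quartile factors, limma-voom or the DESeq2 Wald test. With no filter, with only the 2 groups compared or with replicate number as a block it was 3. Lrig1, which lowers EGFR and ERBB levels and marks stem cells, fell from 174 ± 2.77 CPM in controls to 97.3 ± 10.9 at 2 days (SD, n = 3; log2 fold change -0.84, edgeR adjusted p = 2.05e-06) and 85.8 ± 0.663 at 7 days. Its relative Lrig3 went from 6.41 to 2.77 and 4.03 CPM, lower than controls at both times (-1.20 and -0.66). Errfi1, an inhibitor that binds the EGFR and ERBB2 kinase domains, rose from 147 ± 3.27 to 203 ± 9.94 and 304 ± 4.26 CPM (1.05 at 7 days, edgeR adjusted p = 2.06e-09). At 7 days the ubiquitin ligase gene Cblc rose from 44.1 to 138 CPM (1.65), and Socs5 fell from 47.5 to 18.5 CPM (-1.36).

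Among 27 adaptors and kinases downstream, 3 rose and 4 fell at 2 days, with a median log2 fold change of -0.03. The 4 that fell were 2 without control replicate 1 or 2 or 2 days replicate 1, and 1 without 2 days replicate 3. At 7 days 11 rose and 9 fell (5 and 16 with library size alone), with a median of -0.03, as over all genes. The shares called were 25.9% and 74.1%, near those of all genes tested (23.7% and 82.3%). Mapk3, the gene of the kinase ERK1, went from 77.8 ± 8.17 to 122 ± 1.8 and 506 ± 88.6 CPM (SD, n = 3; 2.7 at 7 days, edgeR adjusted p = 1.17e-11). Map2k1, the gene of the kinase MEK1 that activates it, rose from 122 to 152 and 245 CPM (1.01 at 7 days). In the PI3 kinase branch the regulatory subunit gene Pik3r3 rose from 6.63 to 20.5 CPM at 7 days (1.62), and the catalytic subunit gene Pik3cb fell from 141 to 58.5 CPM (-1.27). The adaptor gene Gab2 fell from 13.2 to 8.2 CPM at 2 days (-0.69) and stood at 18.2 CPM at 7 days (0.46, and not called with library size alone).

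Of 14 transcripts that ERK is known to induce, 3 rose and 4 fell at 2 days, and 6 rose and 7 fell at 7 days, with medians of -0.08 and -0.24. Against these 50% and 92.9% called stand 23.7% and 82.3% of all genes, of which 40.5% were higher and 41.8% lower at 7 days. The 7 that fell at 7 days were 4 without control replicate 2 or 7 days replicate 2 or 3. Fos went from 11.8 ± 1.21 to 20.6 ± 1.47 and 48.5 ± 7.71 CPM (SD, n = 3; 2.05 at 7 days, edgeR adjusted p = 3.41e-10), and Dusp6, a phosphatase that switches ERK off, from 104 ± 2.12 to 139 ± 1.01 and 229 ± 3.36 CPM (1.14 at 7 days, edgeR adjusted p = 3.64e-10). Etv4, an ETS transcription factor gene, fell from 75.9 ± 11.2 to 52.2 ± 3.43 and 20.7 ± 4.63 CPM (-1.88 at 7 days, edgeR adjusted p = 6.85e-09). Dusp4 fell from 68.9 to 47.0 CPM at 2 days (-0.55).

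**Figure D5:**
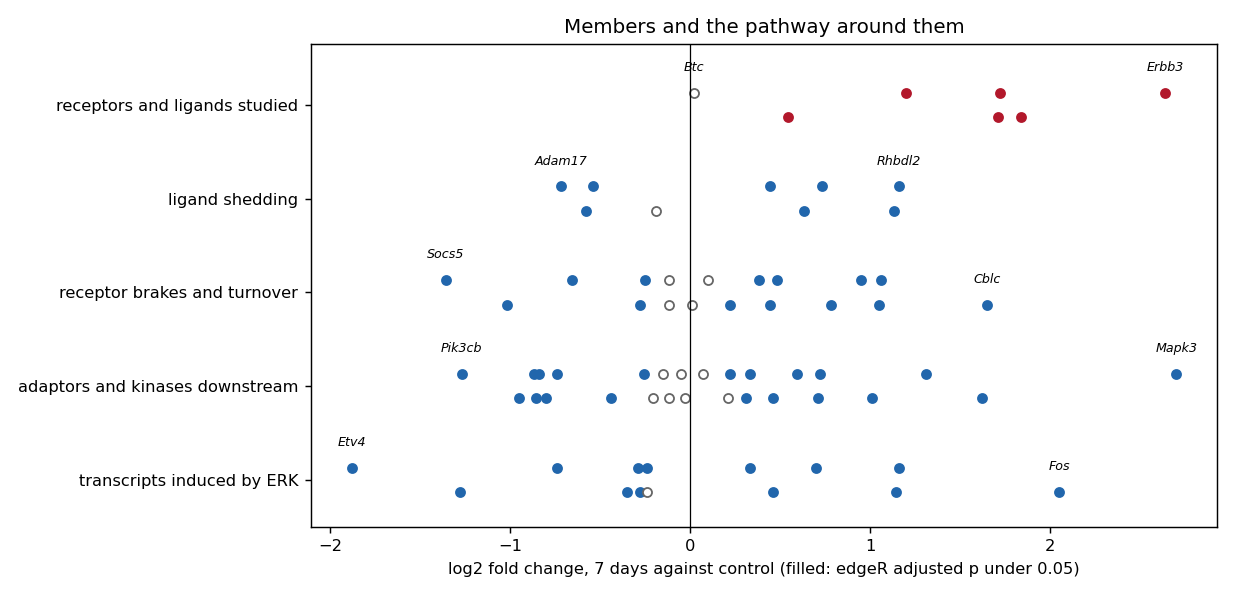
Log2 fold change at 7 days against control of the 7 genes tested (red, top row) and of the 4 pathway lists (blue), 1 point per gene, filled where the edgeR adjusted p was under 0.05 and open where it was not; points are offset vertically only for legibility. The top row has no filled point below 0, whereas each list has filled points on both sides, from Etv4 at -1.88 to Mapk3 at 2.7.

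Among 9788 genes with a mean of at least 5 CPM, the course most like that of each gene over the 9 samples was found by the root mean square difference of log2 CPM after centring each gene on its mean. For Tgfa these were Naip2 (0.0613) and Mst1r (0.0929), and for Hbegf Coa3 (0.0728) and B4galt1 (0.0803). For Erbb2 they were Tnfrsf1a (0.0357) and Sec14l2 (0.0539), and for Erbb3 Atp7b (0.0685) and Zmiz1 (0.0705). For Egfr they were Fam129a (0.0669) and Plekha6 (0.0691), and for Btc Taz, the tafazzin gene in that annotation (0.0601), and Slc30a9 (0.0613). Areg had no such close match, with Aldh1a3 at 0.186 (5.59, 13.3 and 15.9 CPM on average) and Smim6 at 0.194 the nearest. Within the set the closest pair was Egfr and Tgfa at 0.238. These distances are descriptions over samples that share 3 group means.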

How the data were processed

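RNA was measured in 9 samples, 3 per group, grouped by the sample titles. Per the labels' protocols, RNA came from a PureLink kit and poly(A) libraries from a NEBNext Ultra II kit. Whether these libraries kept the strand of a read was not tested. The deposited values are raw counts, read numbers for each gene in each of the 9 samples. The submitters' processing notes name STAR 2.7.0e, featureCounts and DESeq2, and the builds mm10 and GRCm38. Neither the strand setting of the authors' counting nor their annotation release is given in the sources used here.

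Gene IDs were matched to GENCODE M21 (GRCm38), in which 21236 of 21253 were found. Counts were filtered with filterByExpr (12535 genes kept), scaled by TMM and tested in edgeR 4.0.16 (glmQLFit, glmQLFTest; R 4.3.3) with the group alone and all 9 samples, which share 1 estimate of the spread. Calls are at a two-sided Benjamini-Hochberg adjusted p under 0.05 over all genes tested. The SE is the absolute log2 fold change over the square root of F. The code was tested on simulated data. Genes below the filter are given as counts, with 95% exact intervals of the ratio. Length is the union of the exons of a gene.

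The genes of the set and the pathway and marker lists were chosen with earlier results of these data known. From each pathway list the 3 members with the smallest adjusted p against control at each time were eligible to be named, beside the whole set, its other family members, the 2 most similar genes per member and the genes within 500 kb of the chromosome 5 cluster. Alternative settings changed the scaling (DESeq2 size factors, upper-quartile factors, library size alone), the filter (none, or at least 5 CPM on average), the test (limma-voom with limma 3.58.1, the Wald test of DESeq2 1.42.0), the samples fitted (the 2 groups compared, or all but 1 sample), the model (replicate number as a block) and the length (longest transcript).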

Additional observations from a re-analysis of the deposited data

Results flagged for a closer look

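For 5 genes of the set the response at 2 days and at 7 days, measured against the same controls, differed by the edgeR test between the 2 times (3 samples per group). On the log2 scale the difference was 2.04 for Erbb3, 1.56 for Erbb2, 0.88 for Tgfa, 0.67 for Egfr and 0.22 for Areg. In the first 4 genes every sample at 7 days lay above every sample at 2 days, whereas the samples of Areg overlapped and its adjusted p was 0.0499. Of all genes tested, 79.1% were called between these times, and 39.2% were higher at 7 days without overlap.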

How the results depend on the processing

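Of 378 values of the 7 genes' log2 fold changes under 18 alternatives, 358 kept their side of the threshold. Any change of sign among these was between values without a call. Btc at 7 days against control, for example, was 0.02 with TMM and -0.08 with upper-quartile factors (edgeR adjusted p = 0.561). With library size alone, the sign turned for Btc at 7 days against control (-0.38) and for Areg (-0.20) and Hbegf (-0.30) at 7 against 2 days, and Btc passed the threshold at 7 against 2 days (-0.51, edgeR adjusted p = 0.00467). The same scaling gave 1 gene of the set lower at 7 days and 2 lower between times, against 0 and 0 with TMM, and turned Rassf6 at 7 days (-0.07, from 0.32) and Dusp4 between times (-0.15, from 0.27). Leaving out 1 sample each gave 809 to 1517 genes lower at 2 days, against 1333, with the lowest count without control replicate 2. It gave 5 to 6 genes of the set higher at 2 days, 6 at 7 days and 4 to 5 between times. Shares per length changed by more than the spread between replicates in 15 values with the longest transcript as length. Depth limits Egf, Ereg and Nrg1 to counts without a usable fold.

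Same-numbered samples of different groups had correlations of their deviations from -0.13 to 0.48, 5 of 9 over 0.1, and differently numbered samples from -0.437 to 0.169, 1 of 18 over 0.1. The labels tie the numbers to no shared batch and not every same-numbered pair was over 0.1, so the samples were left unpaired, although the values lean towards a shared number, and not every sample correlated best with its own number. With the replicate block, the genes of the set numbered 6 higher at 2 days, 6 at 7 days and 5 between times, with 0 lower, and all genes 2076 higher and 1963 lower at 2 days, 5242 and 5425 at 7 days, and 5087 and 5221 between times.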
